A study of Mus musculus with 18 samples.

Results

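Mouse thyroid tumours carrying BrafV600E together with the transgene K5-Tert were compared with BrafV600E tumours carrying the Tert promoter change Tert-123C>T, across all genes. The members were chosen by the genotype labels, 4 libraries of BrafV600E with K5-Tert (K5-Tert tumours) and 7 of BrafV600E with Tert-123C>T (Tert-123 tumours), which makes 11 of the 18 libraries of the series. All 11 were described as thyrocytes sorted for the yellow fluorescent protein YFP, from untreated (naïve) mice, taken at 20 weeks. The 4 libraries of tumours with BrafV600E alone (Braf tumours) shared the fit and are given as a reference level, and 3 single pools without BrafV600E (wild type, K5-Tert and Tert-123C>T) are used at the end. Both tumour groups therefore carry BrafV600E, a form of the kinase Braf that signals without an upstream input, and differ in the Tert allele they add to it. In K5-Tert mice the name points to the keratin 5 promoter, which is active in basal cells of stratified epithelia, whereas Tert-123C>T alters the promoter of the mouse's own Tert gene. Which driver activates BrafV600E and YFP, the sex of the mice and whether each library is a separate animal are not given in the labels used here, so the spread that each p-value is judged against may be technical.

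Tert encodes the reverse transcriptase of telomerase, which uses an RNA template, Terc, to add repeats to chromosome ends. The enzyme is scarce in most differentiated cells, and in human thyroid cancer, changes in the TERT promoter that create a binding site for ETS transcription factors occur together with the BRAF mutation in aggressive disease. ETS factors such as Etv1 and Etv4 are themselves produced in response to the MAPK pathway that Braf activates. The stretch around the mouse promoter change is printed to show what the Tert-123 allele alters, from RefSeq on GRCm38.p6, chr13:73626851-73626920, plus strand. The capital marks the base at position 73626907, found by counting back from the annotated start codon by the number in the allele's name. The labels do not say from where that number is counted, but that base is a C in the reference, as the name requires.
Tert reference: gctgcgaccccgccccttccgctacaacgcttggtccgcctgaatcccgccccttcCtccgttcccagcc
Tert-123C>T: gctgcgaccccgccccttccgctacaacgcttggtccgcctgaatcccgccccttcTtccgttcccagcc
The letters TTCCG, which read CGGAA on the other strand and so hold the ETS core GGAA, stand 1 time in the reference stretch and 2 times with the change. This is a description of letters and not of binding. The last 10 bases lie past the annotated transcription start.

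Tert was much higher with the transgene than with the promoter change. K5-Tert tumours 1 to 4 held 73.9, 11.2, 19.0 and 53.4 TPM (the unit that the deposited values were taken to have, an abundance per transcript with the same total in each library), and the 7 Tert-123 tumours held 2.65, 5.88 and 6.23 TPM (lowest, median and highest). No K5-Tert tumour overlapped the Tert-123 range, and Tert-123 tumours lay near the Braf tumours, at 3.78 to 5.12 TPM. The means were 39.3 ± 29.4 TPM (SD, n = 4) and 5.18 ± 1.34 TPM (SD, n = 7), a difference of 2.39 on the log2(TPM + 1) scale (exact permutation test over all 330 arrangements, two-sided, p = 0.00303, which is the lowest value possible). Tert passed the filter on low values only through the K5-Tert tumours, so a difference was built into its being tested by the fit across all genes. Within the K5-Tert group, tumours 1 and 4 were high and tumours 2 and 3 low. Braf, the other engineered gene, was at 7.34, 2.40, 4.31 and 3.61 TPM in K5-Tert tumours and at 6.02, 7.65 and 8.99 TPM (lowest, median and highest) in Tert-123 tumours, too low to enter the main fit. In a fit rescaled without the RNA Rpph1 it was tested and was lower by 0.64 on the log2 scale (limma, adjusted p = 0.0338). In that fit 1632 of 10506 genes were lower.

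The K5-Tert libraries were uneven in quality measures as well as in Tert. K5-Tert tumours 2 and 4 had 3903 and 4248 genes at 10 TPM or more, against 6724 and 6022 in tumours 1 and 3 and 5903 to 7329 in Tert-123 tumours. The RNA component of ribonuclease P, Rpph1, took 68.8% and 67.6% of the TPM in those same K5-Tert tumours 2 and 4. Relative levels fell with transcript length in K5-Tert tumours 2, 3 and 4 (Spearman rho across genes -0.29, -0.14 and -0.23) and in Tert-123 tumour 7 (-0.11), and rose with it in K5-Tert tumour 1 and the other 6 Tert-123 tumours. Xist, the RNA of the inactive X chromosome, was at 52.5 TPM in K5-Tert tumour 3 and at 0.0294 TPM or less in the other 3, and at 54.5 to 88.1 TPM in Tert-123 tumours 1 to 4. Ddx3y, a Y-linked helicase gene, was at 8.63 TPM or more in the remaining libraries, so the groups were not balanced for sex. The numbers in the names of K5-Tert samples are all higher than those of the other tumours, and any cohort or run behind them cannot be told apart from K5-Tert. Tg, Pax8 and Nkx2-1, defining genes of thyrocytes, were detected in every tumour, with Tg at 84.1 to 272 TPM in K5-Tert tumours, 81.9 to 511 TPM in Tert-123 tumours and 31240 TPM in the wild-type pool. Pax8 was at 91.6, 16.8, 30.2 and 30.4 TPM in K5-Tert tumours 1 to 4 and at 53.3 to 151 TPM in Tert-123 tumours. Nkx2-1 was at 137, 52.4, 69.3 and 73.1 TPM against 87.2 to 271 TPM. K5-Tert tumours 2, 3 and 4 lay below the Tert-123 range for both, as they did for 5347, 2597 and 4727 of all 7498 genes tested. After the TMM-type rescaling described below, neither Pax8 nor Nkx2-1 passed limma's test (adjusted p = 0.0670 and 0.114).

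**Figure D1:**
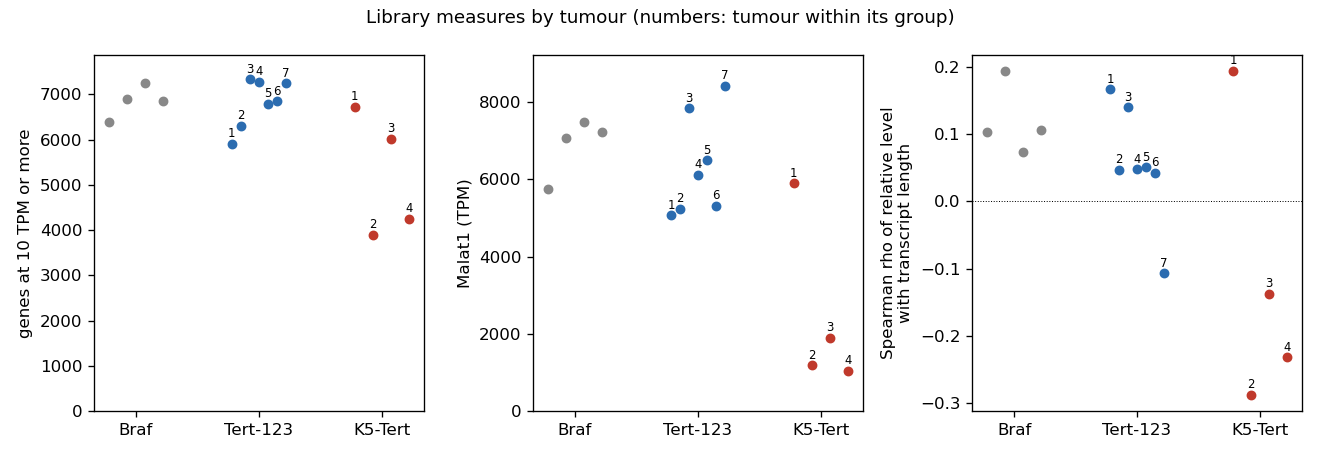
Each point is 1 tumour library, numbered within its group, for the Braf, Tert-123 and K5-Tert tumours. The panels show the number of genes at 10 TPM or more, Malat1 in TPM, and the Spearman rho across genes between a library's relative level and transcript length; K5-Tert tumours 2 and 4 have 3903 and 4248 genes at 10 TPM, and K5-Tert tumours 2, 3 and 4 have 1191, 1908 and 1050 TPM of Malat1 against at least 5072 TPM in Tert-123 tumours.

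Across the transcriptome, more genes were lower than higher in K5-Tert tumours, and how many depended on the scaling. With the values as deposited, limma called 57 of 7498 genes higher (0.760%) and 2210 lower (29.5%), 30.2% in either direction, at a Benjamini-Hochberg adjusted p under 0.05. The median gene was lower by 0.48 on the log2 scale (log2 difference -0.48), so each library was also rescaled by a factor of the TMM type (trimmed mean of M-values), which sets the typical gene to no difference and left a median of 0.02. After rescaling 545 genes were higher (7.27%) and 656 lower (8.75%). Genes are called higher or lower from here on only where both scalings called them the same way, which held for 57 higher and 656 lower genes, 9.51% of those tested. Of these, 52 of the 57 and 400 of the 656 were also called under 3 further scalings. For 9 of the 57 higher genes (Tert, Il1b, Il1r2, Nr4a1, Nr4a3, Csrnp1, Acta2, Rgs1 and Ctla2b) the filter on low values was passed only with the K5-Tert tumours, where they are high, so a difference was built in. Apart from Tert, values of such genes are given below as a description, with no p, and the other 48 passed it without the K5-Tert tumours. Gng4, Mirg and Terf2, named below as lower, passed the filter only with the Tert-123 tumours, where they are high. They are also given with no p. The 656 lower genes were not counted in this way. All 4 K5-Tert tumours lay above every Tert-123 tumour for 16 genes (0.213%) and below every one for 394 (5.25%).

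The 4 K5-Tert tumours did not contribute alike. Of all 7498 genes, 5347 lay below the whole Tert-123 range in K5-Tert tumour 2 and 4727 in tumour 4, against 659 in tumour 1 and 2597 in tumour 3. Among the 656 lower genes, 651, 642 and 650 lay below that range in tumours 2, 3 and 4 and 235 in tumour 1. Among the 57 higher genes, 53 lay above it in tumour 3, 43 in tumour 2, 38 in tumour 4 and 27 in tumour 1. When K5-Tert tumours 2 and 4 were left out and the values rescaled, 47 of 7470 genes were higher (0.629%) and 96 lower (1.29%), among them 14 of the 57 and 84 of the 656. All 656 lower genes, and the 52 of the 57 higher genes that could be tested there, kept their sign.

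Immediate-early genes are transcribed within minutes of growth factor or stress signals, and many encode transcription factors. Of 26 tested members of a list of 27, 8 were called higher and 0 lower in K5-Tert tumours (limma, Benjamini-Hochberg), 18 were not called, and 3 of the 8 passed the filter only with K5-Tert tumours. The median log2 difference was 0.28 as deposited and 0.80 after rescaling, against -0.48 and 0.02 over all genes. Over all genes tested, 0.760% were called higher and 8.75% lower. Fosb, a partner of Jun proteins in the factor AP-1, was at 51.4, 44.4, 155 and 81.1 TPM in K5-Tert tumours 1 to 4 and at 3.88, 7.68 and 63.0 TPM in Tert-123 tumours (lowest, median and highest, as for every gene below). Its log2 difference was 2.78 ± 0.52 (SE; adjusted p = 0.00309), and the ranges overlapped through Tert-123 tumour 7 alone, which held the 63.0 TPM. Nr4a1, an orphan nuclear receptor, was at 30.3, 17.7, 72.7 and 44.1 TPM against 4.12, 7.19 and 23.6 TPM, a log2 difference of 2.07 ± 0.39 (SE). Here 3 of the 4 K5-Tert tumours lay above every Tert-123 tumour. The related receptor Nr4a3 was at 14.8, 11.3, 119 and 10.2 TPM against 0.871, 2.27 and 4.73 TPM, and Csrnp1, a nuclear protein with a cysteine and serine rich region, was at 15.3, 19.9, 41.9 and 22.1 TPM against 5.82, 8.13 and 9.05 TPM. Neither pair of ranges overlapped, and the log2 differences were 2.79 for Nr4a3 and 1.44 for Csrnp1, but both genes, like Nr4a1, entered the test only through the K5-Tert tumours.

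The other called members of that list were Fos, Atf3, Dusp1 and Ier3. Fos, the founding AP-1 member, was at 122.9, 139.5, 332 and 236 TPM against 45.6, 54.4 and 388 TPM (log2 difference 1.40, adjusted p = 0.0404), and its highest value of all was in Tert-123 tumour 7. Atf3, a stress-induced factor of the same leucine zipper class, was at 54.0, 80.6, 114 and 221 TPM against 13.6, 19.7 and 161 TPM (log2 difference 1.96, adjusted p = 0.0135). Dusp1, a phosphatase that inactivates MAP kinases, was at 45.3, 59.1, 126 and 74.5 TPM against 20.6, 29.3 and 78.8 TPM (log2 difference 1.13, adjusted p = 0.0259), and 3 K5-Tert tumours lay inside the Tert-123 range. Ier3, an early response gene linked to cell survival, rose by 0.89 (adjusted p = 0.0146), with K5-Tert values of 30.2 to 71.9 TPM against 15.7 to 30.2 TPM. For Fos, Atf3 and Dusp1 the top Tert-123 value came from tumour 7, which was the highest of its 7 in 18 of the 26 tested members. These are values as deposited, where tumour 7 also had the largest TMM-type factor of its group (1.31, with tumour 3 next at 1.29). How often it was the highest over all genes was not counted. Without tumour 7 of the Tert-123 group, 9 members rose as deposited and 16 after rescaling, where 14 had risen with it. Over all genes 84 and 580 of 7371 were higher without that tumour, and 7.27% were higher after rescaling with it. Without K5-Tert tumours 2 and 4, 5 members rose after rescaling, and Fos, Atf3 and Dusp1 did not pass (adjusted p = 0.246, 0.227 and 0.173). Gadd45b, a growth arrest gene that stress and p53 induce, was at 30.8, 39.3, 84.9 and 27.8 TPM against 9.04, 10.9 and 19.6 TPM, with no overlap (log2 difference 1.60, adjusted p = 0.00341). It was the 1 called of 12 tested p53 targets, whose median log2 difference was -0.48 as deposited and 0.03 after rescaling.

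**Figure D2:**
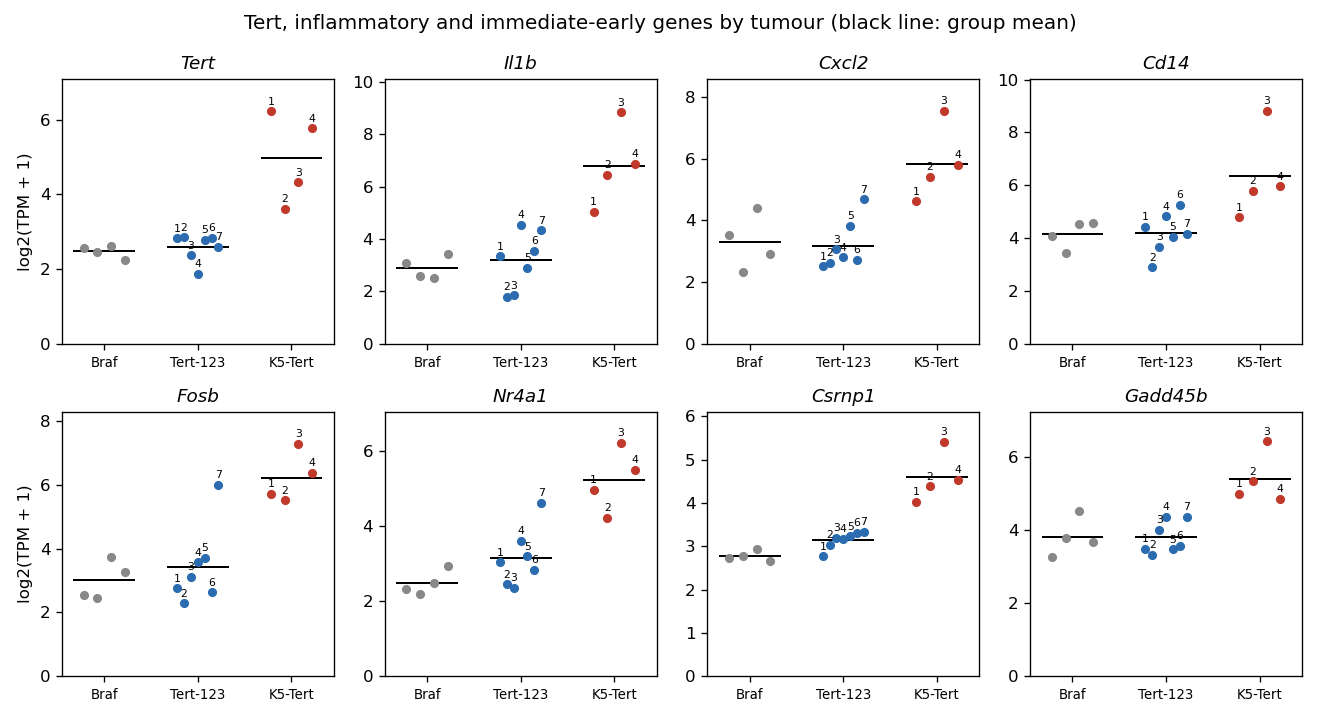
Levels on the log2(TPM + 1) scale of Tert and 7 genes that were higher in K5-Tert tumours, with 1 point per tumour, numbered within its group, and a black line at each group mean. For Tert, Il1b, Csrnp1 and Gadd45b all 4 K5-Tert tumours lie above all 7 Tert-123 tumours, and for Fosb only Tert-123 tumour 7, at 63.0 TPM, reaches into the K5-Tert range.

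The largest difference among the higher genes was in an inflammatory gene. Il1b, the cytokine interleukin 1 beta, was at 32.1, 86.2, 458 and 116 TPM in K5-Tert tumours and at 2.47, 9.16 and 22.5 TPM in Tert-123 tumours. All 4 K5-Tert tumours were above all 7 Tert-123 tumours, with a log2 difference of 3.61 ± 0.57 (SE), and of 3.89 without K5-Tert tumours 2 and 4 after rescaling. Of 12 tested cytokines and receptors, 3 were called higher (Il1b, Il1r2 and Cd14) and 0 lower, Il1b and Il1r2 having entered the test only through the K5-Tert tumours. The share called higher over all genes tested was 0.760%. Cd14, a co-receptor for bacterial lipopolysaccharide, was at 26.6, 53.9, 450 and 61.4 TPM against 6.46, 16.8 and 37.1 TPM (log2 difference 2.15, adjusted p = 0.00988), so K5-Tert tumour 1 lay inside the Tert-123 range, and it did not pass without K5-Tert tumours 2 and 4 after rescaling (adjusted p = 0.113). Il1r2, a decoy receptor that binds interleukin 1 without signalling, was at 10.01, 14.0, 67.2 and 6.37 TPM against 1.01, 2.83 and 10.2 TPM (log2 difference 2.10), and could not be tested without K5-Tert tumours 2 and 4. K5-Tert tumours 1 and 4 overlapped the Tert-123 range for Il1r2.

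Of 9 tested chemokines 1 rose, and of 16 tested NF-kB subunits and feedback genes 1 rose, against 0.760% higher over all genes tested. Cxcl2, which attracts neutrophils, was at 23.5, 41.3, 185 and 54.6 TPM against 4.70, 5.96 and 24.6 TPM (log2 difference 2.67 ± 0.49, SE; adjusted p = 0.00274). K5-Tert tumour 1 fell just below the highest Tert-123 library, again tumour 7. Nfkbia, the inhibitor that NF-kB induces and that holds it in the cytoplasm, was at 80.2, 63.4, 194 and 83.7 TPM against 39.7, 45.5 and 70.7 TPM (log2 difference 0.88, adjusted p = 0.0191). For Nfkbia only K5-Tert tumour 2 overlapped the Tert-123 range.

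Il1b, Cxcl2 and Cd14 are made by macrophages and neutrophils as well as by epithelial cells, and in a bulk sample fewer cells of a type and less RNA per cell cannot be told apart. None of 12 tested macrophage markers passed limma's test, and 0 had an unadjusted p under 0.05. Their summed level was 1741, 1380, 7768 and 1054 TPM in K5-Tert tumours 1 to 4 and 682, 2122 and 8245 TPM in Tert-123 tumours. Csf1r, the receptor on which macrophages depend, was at 24.6, 9.05, 70.9 and 5.79 TPM against 5.94, 24.5 and 54.5 TPM, so it was high in the same K5-Tert tumour 3 that held the most Il1b, Cxcl2 and Cd14. Of 14 neutrophil markers 4 were tested and 1 was called higher, Il1r2, while Ly6g and Mmp8 stayed under 1 TPM in all 11 tumours. Il1r2 entered the test only through the K5-Tert tumours, and 0.760% of all genes tested were called higher. The neutrophil sum was 654 to 1004 TPM in K5-Tert tumours and 600 to 4284 TPM in Tert-123 tumours. The part of such cells in these rises was not tested.

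Promoters of some of the higher genes are shown because these genes are textbook targets of CREB and NF-kB, which bind the letters TGACG (or CGTCA, its reverse) and the kappa B motif. Of the 57 higher genes, 42 had an entry in the RefSeq promoter table (GRCm38.p6), with 48 promoters, and the 250 bases before each start were searched on both strands. In the sequences below, the capitals mark TGACG or CGTCA in Nr4a1, both TGACG and a kappa B match in Fosb, and kappa B matches, which overlap in Cxcl2, in Cxcl2 and Nfkbia. They lie at chr15:101266596-101266845 (plus strand), chr7:19310046-19310295 (minus), chr5:90903649-90903898 (plus) and chr12:55492648-55492897 (minus), and the last base printed is the one before the start.
Nr4a1: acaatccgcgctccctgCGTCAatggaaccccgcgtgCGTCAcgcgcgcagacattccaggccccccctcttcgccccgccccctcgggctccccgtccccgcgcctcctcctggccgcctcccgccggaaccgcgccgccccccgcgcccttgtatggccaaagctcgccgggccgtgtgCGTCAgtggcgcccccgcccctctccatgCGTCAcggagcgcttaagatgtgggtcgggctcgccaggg
Fosb: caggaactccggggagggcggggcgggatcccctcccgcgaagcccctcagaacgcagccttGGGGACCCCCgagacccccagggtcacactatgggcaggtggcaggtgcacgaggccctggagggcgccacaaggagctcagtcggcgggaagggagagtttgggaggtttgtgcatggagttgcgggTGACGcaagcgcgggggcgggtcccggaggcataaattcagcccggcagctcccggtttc
Cxcl2: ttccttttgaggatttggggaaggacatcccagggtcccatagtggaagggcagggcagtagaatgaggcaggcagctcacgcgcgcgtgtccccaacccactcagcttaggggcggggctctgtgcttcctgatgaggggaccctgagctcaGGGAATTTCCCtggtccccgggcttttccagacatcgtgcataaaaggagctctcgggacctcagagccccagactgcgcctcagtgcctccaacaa
Nfkbia: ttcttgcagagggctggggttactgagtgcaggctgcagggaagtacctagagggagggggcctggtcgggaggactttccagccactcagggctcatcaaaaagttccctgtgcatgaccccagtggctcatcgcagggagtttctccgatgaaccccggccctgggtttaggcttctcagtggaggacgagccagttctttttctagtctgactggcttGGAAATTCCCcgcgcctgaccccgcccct
TGACG or its reverse stood in 21 of the 48 promoters (18 genes, among them Fos, Fosb, Atf3, Nr4a1, Nr4a3, Csrnp1 and Dusp1) and in 17.8% of all 32851 promoters. The longer palindrome TGACGTCA, which contains TGACG, stood in 2 of the 48 (Dusp1 and Rpl18) and in 1.55% of all. A kappa B match stood in 6 (Cxcl2, Fos, Fosb, Ier3, Nfkbia and Tert) and in 3.90% of all, and the CArG box, the letters of serum response factor, in 0 of the 48 and 1.47% of all. The Tert match is in the promoter of the mouse's own gene, not in the promoter that the transgene's name points to. These are counts of letters in a short window, and no binding was measured. The genes were searched because they had been called higher, some having passed the filter only with K5-Tert tumours. Whether these factors act on the genes was not tested.

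Cytosolic ribosomal protein genes, whose products form the small and large ribosomal subunits, were the other large group among the higher genes. Of 56 tested, 16 rose and 0 fell as deposited and under both scalings, against 0.760% higher over all genes tested. After rescaling alone 44 rose, against 7.27% over all genes. The list's median log2 difference was 0.34 as deposited and 0.87 after rescaling. Rpsa, a small-subunit protein, was at 677, 721, 1108 and 701 TPM against 349, 432 and 535 TPM (log2 difference 0.85 ± 0.19, SE; adjusted p = 0.00621). Rplp0, a protein of the large-subunit stalk, was at 814, 709, 963 and 856 TPM against 362, 534 and 652 TPM (log2 difference 0.77, adjusted p = 0.0109). The groups did not overlap for either gene, and both calls held without K5-Tert tumours 2 and 4 after rescaling (adjusted p = 0.0364 and 0.0411). Rps14 and Rps21 rose by 0.92 (adjusted p = 0.01003) and 0.98 (adjusted p = 0.0101), with K5-Tert values of 618 to 1411 and 531 to 991 TPM against 409 to 724 and 239 to 522 TPM. Rps21 did not overlap between groups, and Rps14 did. Rps2, a small-subunit gene outside the list, was at 480, 594, 756 and 300.4 TPM against 49.1, 228 and 408 TPM (log2 difference 1.33, adjusted p = 0.0409).

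Ribosomal protein transcripts are short, and short transcripts were relatively high in K5-Tert tumours 2, 3 and 4. The median transcript length was 769.5 bases for the 57 higher genes, 1576 for those of the 656 lower genes with a length and 1155 for all genes tested. When each library's mean and slope against length were both removed, 39 of the 56 ribosomal protein genes rose, against 44 after rescaling. Over all genes 396 of 7469 were higher with mean and slope removed. Without K5-Tert tumours 2 and 4, 3 rose after rescaling (Rpsa, Rplp0 and Rpl8). Tert-123 tumour 7 was the highest of its group for 43 of the 56 as deposited, a share that was not counted over all genes. Without that tumour 20 rose as deposited and 41 after rescaling, against 84 and 580 of 7371 genes. Many of these genes have near-identical processed copies, and how reads were shared among copies is not given in the sources used here. Mitochondrial ribosomal proteins (38 tested) and nuclear-encoded respiratory chain subunits (66 tested) had 0 calls under both scalings. At an unadjusted p under 0.05 as deposited, 1 and 2 were higher and 2 and 3 lower. After rescaling alone 10 and 20 of them rose, with medians of 0.42 and 0.45, against 7.27% higher over all genes tested.

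Heat shock genes, which encode chaperones induced by unfolded protein, had 0 of 14 calls under both scalings (limma; 1 higher and 1 lower at an unadjusted p under 0.05) and 4 higher after rescaling. After rescaling 7.27% of all genes tested were higher. Tert-123 tumour 7 was the highest of its group for 14 of the 14 as deposited. Its TMM-type factor was also the largest of that group (1.31, with tumour 3 next at 1.29), and the share over all genes was not counted. Hspa1a, the inducible Hsp70, was at 67.8, 45.8, 101 and 103 TPM in K5-Tert tumours and at 24.7, 36.3 and 162 TPM in Tert-123 tumours (log2 difference 0.82, adjusted p = 0.0941). Without tumour 7 of the Tert-123 group, 3 of the 14 rose as deposited and 5 after rescaling, against 84 and 580 of 7371 genes.

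Id3, Nfil3, Ehd1 and S100g were also called higher, the last pair from no list. Id3 was the 1 called of 12 tested TGF-beta targets and Nfil3 the 1 called of 10 tested circadian clock genes, against 0.760% higher over all genes tested. Id3, an inhibitor of basic helix-loop-helix factors and a target of BMP signalling, was at 58.1, 75.5, 74.7 and 42.2 TPM against 18.1, 31.3 and 51.0 TPM (log2 difference 0.86, adjusted p = 0.0182). Nfil3, a repressor that feeds into the circadian clock, was at 16.1, 14.1, 70.3 and 16.1 TPM against 4.83, 10.6 and 15.5 TPM (log2 difference 1.18, adjusted p = 0.0212). K5-Tert tumour 4 for Id3, and tumour 2 for Nfil3, lay inside the Tert-123 range. Ehd1, a protein of endosome recycling, was at 27.8, 20.8, 58.4 and 17.4 TPM against 8.07, 14.7 and 19.6 TPM (log2 difference 1.02, adjusted p = 0.0175), and S100g, a calcium-binding protein of transporting epithelia, was at 22.4, 15.4, 39.1 and 97.6 TPM against 8.49, 13.0 and 31.5 TPM (log2 difference 1.18, adjusted p = 0.0301). The ranges overlapped through K5-Tert tumour 4 for Ehd1 and through tumours 1 and 2 for S100g. Ehd1 also passed without K5-Tert tumours 2 and 4 after rescaling (adjusted p = 0.0348), and Id3, Nfil3 and S100g did not (adjusted p = 0.111, 0.0631 and 0.221).

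Acta2 and Tagln, contractile proteins of smooth muscle, pericytes and activated fibroblasts, were called higher, as 2 of 4 tested pericyte and smooth muscle markers. Acta2 entered the test only through the K5-Tert tumours, so a difference was built in. Over all genes tested 0.760% were called higher. Tagln was at 19.6, 32.1, 60.3 and 18.5 TPM in K5-Tert tumours and at 1.77, 10.5 and 16.7 TPM in Tert-123 tumours, with no overlap (log2 difference 1.63, adjusted p = 0.0127). Acta2 was at 23.3, 25.1, 52.1 and 10.6 TPM against 2.67, 7.49 and 35.2 TPM, and here 3 K5-Tert tumours overlapped the Tert-123 range (log2 difference 1.32). The sum of the 10 markers was 113, 130, 242 and 52.6 TPM in K5-Tert tumours and 30.8 to 146 TPM in Tert-123 tumours. Of 10 tested fibroblast markers 0 passed and 0 had an unadjusted p under 0.05, with a median log2 difference of 0.80 as deposited and 1.27 after rescaling, and their sum was 1234, 762, 2253 and 462 TPM against 321 to 3053 TPM. Tagln did not pass without K5-Tert tumours 2 and 4 after rescaling (adjusted p = 0.136), nor did Acta2, and the part of stromal cells in these differences was not tested.

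Among the lower genes the largest fall was in Gng4, a gamma subunit of heterotrimeric G proteins. It was at 0.566 and 0.575 TPM in K5-Tert tumours 1 and 3, listed at 0 in tumours 2 and 4, and at 0.406, 41.3 and 221 TPM in Tert-123 tumours (log2 difference -4.74 ± 0.996, SE). Gng4 entered the test only through the Tert-123 tumours, where it is high, so a difference was built in and no p is given. The low end of the Tert-123 group reached the K5-Tert values, and Braf tumours also ran from 0.0783 to 35.9 TPM. Gng4 did not pass without K5-Tert tumours 2 and 4 after rescaling. Tle2, a corepressor of the Groucho family that acts with Notch and Wnt target repressors, was at 32.2, 12.7, 12.8 and 13.7 TPM against 52.8, 61.2 and 81.1 TPM (log2 difference -1.92 ± 0.23, SE; adjusted p = 0.000245). The groups did not overlap for Tle2, and Braf tumours were at 73.5 to 88.0 TPM. The Tle2 call held without K5-Tert tumours 2 and 4 after rescaling (adjusted p = 0.0116). Of 10 tested corepressor and Notch pathway repressor genes 2 fell, Tle2 and Tle4, and 0 rose, against 8.75% lower over all genes tested. Tle4 did not pass without K5-Tert tumours 2 and 4 after rescaling (adjusted p = 0.297).

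Of 7 tested RNAs that stay in the nucleus, 4 fell, 3 were not called and 0 rose, with a median log2 difference of -1.84 as deposited and -1.33 after rescaling. The share called lower over all genes tested was 8.75%. Meg3, an imprinted noncoding RNA transcribed from the maternal chromosome, was at 30.5, 17.6, 8.83 and 6.07 TPM against 59.5, 84.1 and 152 TPM (log2 difference -2.69 ± 0.39, SE; adjusted p = 0.00109). Mirg, from the same imprinted cluster, was at 3.30, 3.88, 1.83 and 2.19 TPM against 8.89, 14.9 and 23.4 TPM (log2 difference -2.05). Mirg, 1 of the 4 that fell, entered the test only through the Tert-123 tumours, so a difference was built in. The groups did not overlap for Meg3 or Mirg. Without K5-Tert tumours 2 and 4 after rescaling, Meg3 remained lower (adjusted p = 0.0360), and the log2 difference of Mirg was -2.05. Rian, of the same cluster, was not called, since it did not pass limma's test after rescaling (log2 difference -0.77, adjusted p = 0.225). For Rian K5-Tert tumour 2, at 55.1 TPM, lay inside the Tert-123 range, which began at 52.9 TPM.

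Neat1, the scaffold of nuclear paraspeckles, was at 60.4, 12.9, 22.3 and 19.6 TPM against 61.2, 91.0 and 129 TPM (log2 difference -1.84, adjusted p = 0.00170), and Malat1, an abundant RNA of nuclear speckles, was at 5902, 1191, 1908 and 1050 TPM against 5072, 6127 and 8420 TPM (log2 difference -1.69, adjusted p = 0.00346). K5-Tert tumour 1 stood just below the Tert-123 group for Neat1 and inside it for Malat1, while the other 3 K5-Tert tumours were far below. Without K5-Tert tumours 2 and 4 neither passed after rescaling (adjusted p = 0.0807 and 0.146). Firre, an X-linked nuclear RNA that organises chromatin contacts, was at 35.3, 8.11, 13.2 and 8.01 TPM against 46.4, 61.9 and 83.9 TPM (log2 difference -2.08, adjusted p = 0.00109), with no overlap. The K5-Tert tumours with the lowest Malat1 (2, 3 and 4) were those in which levels fell with transcript length. With each library's mean and slope against length removed, 4 of the 7 nuclear-retained RNAs were called lower, against 614 of 7469 genes. The part of library quality in these falls was not tested.

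**Figure D3:**
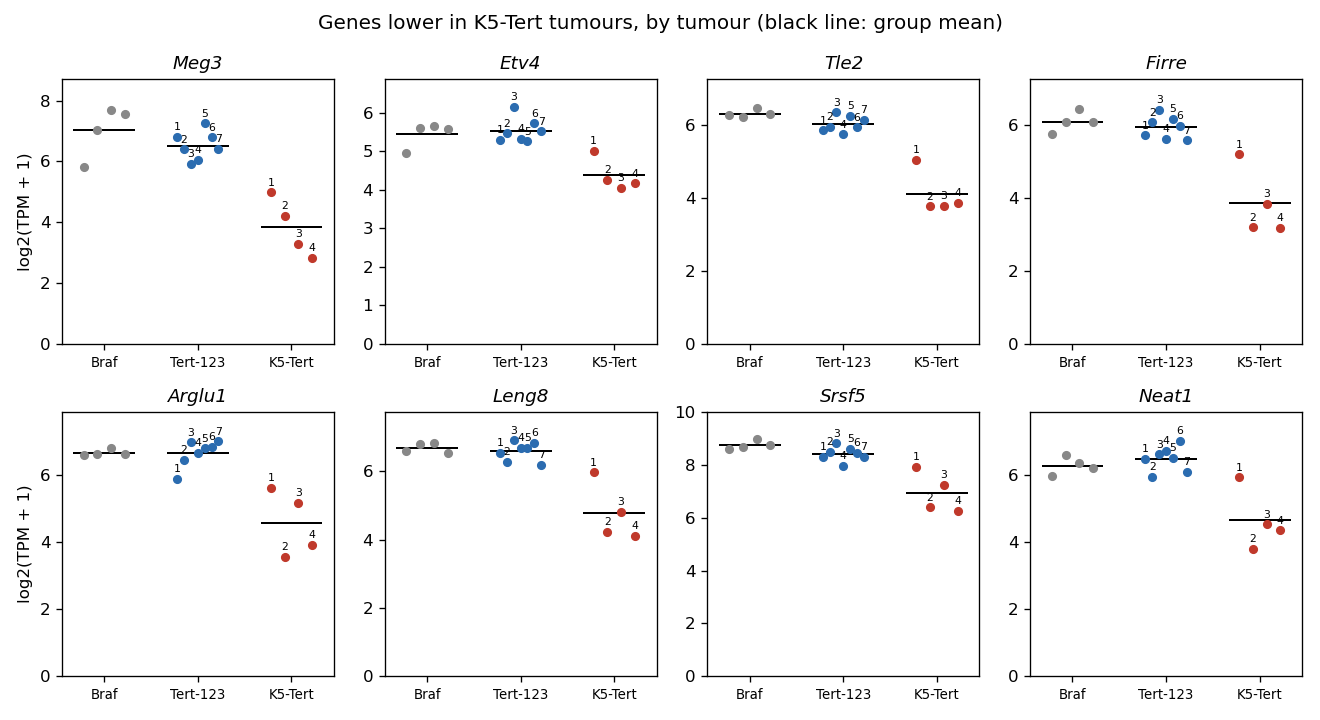
Levels on the log2(TPM + 1) scale of 8 genes that were lower in K5-Tert tumours, with 1 point per tumour, numbered within its group, and a black line at each group mean. K5-Tert tumour 1 is the highest of its group for every gene shown and nearest to the Tert-123 tumours, for example 32.2 TPM of Tle2 against 12.7 to 13.7 TPM in K5-Tert tumours 2 to 4 and 52.8 TPM or more in Tert-123 tumours.

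Of 21 tested splicing factor genes (SR proteins, hnRNPs and related factors), 12 fell, 9 were not called and 0 rose, against 8.75% lower over all genes tested. The median log2 difference was -0.92 as deposited and -0.41 after rescaling. Srsf5, an SR protein that promotes exon inclusion, was at 239.96, 82.6, 149 and 75.4 TPM against 246, 349 and 447 TPM (log2 difference -1.47 ± 0.26, SE; adjusted p = 0.00251). Srsf11 was at 41.6, 18.4, 28.6 and 18.3 TPM against 50.4, 65.1 and 88.5 TPM (log2 difference -1.33, adjusted p = 0.00230). Luc7l3, a component of the U1 particle that recognises 5′ splice sites, was at 58.4, 21.6, 32.1 and 22.6 TPM against 61.3, 75.5 and 113 TPM (log2 difference -1.32, adjusted p = 0.00327), and its relative Luc7l2 fell by 1.31 on the log2 scale (adjusted p = 0.00540). Srsf5, Srsf11 and Luc7l3 did not overlap between groups, with K5-Tert tumour 1 again nearest to the Tert-123 tumours. Without K5-Tert tumours 2 and 4, 1 of the 21 fell after rescaling, Srsf11 (adjusted p = 0.0269). With each library's mean and slope against length removed 11 fell, against 614 of 7469 genes.

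Other genes with the largest falls stood in no list. Arglu1, which couples transcription to splicing, was at 47.9, 10.8, 34.8 and 14.0 TPM against 58.4, 110.01 and 127 TPM (log2 difference -2.10, adjusted p = 0.00118). Leng8 was at 62.0, 17.7, 27.2 and 16.3 TPM against 72.2, 102 and 119 TPM (log2 difference -1.81, adjusted p = 0.00122). Paxbp1 and Fam193b fell by 1.86 and 1.90 on the log2 scale, to 4.92 to 23.1 TPM and 3.31 to 20.4 TPM, against at least 29.6 and 29.0 TPM in Tert-123 tumours. None of these 4 overlapped between groups, and all 4 remained lower without K5-Tert tumours 2 and 4 after rescaling (adjusted p = 0.0116, 0.0420, 0.0184 and 0.0214 for Arglu1, Leng8, Paxbp1 and Fam193b). The pseudogene Pisd-ps3 fell by 2.29 (42.3 TPM at most against 78.8 TPM at least), and its reads may be shared with its parent gene. Vash2, which promotes blood vessel growth, fell by 2.08 (50.5 TPM at most against 52.7 TPM at least), and Vsig8 by 2.10 (13.7 TPM at most against 17.4 TPM at least). Spaca6, known for its role in sperm and egg fusion, fell by 1.81 with K5-Tert tumour 1, at 51.4 TPM, inside the Tert-123 range. Without K5-Tert tumours 2 and 4 after rescaling, Pisd-ps3 passed (adjusted p = 0.0184) and Vash2, Vsig8 and Spaca6 did not (adjusted p = 0.0756, 0.160 and 0.288).

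In the telomerase and shelterin list (14 tested) Tert was called higher, and Terf2 and Terf2ip fell, 2 of 14 against 8.75% lower over all genes tested. Terf2 encodes the shelterin protein that binds telomeric repeats and shapes the telomere end, and Terf2ip its partner RAP1. Terf2 was at 7.92, 2.50, 4.93 and 3.18 TPM in K5-Tert tumours and at 7.91, 10.05 and 13.5 TPM in Tert-123 tumours (log2 difference -1.11). Terf2 entered the test only through the Tert-123 tumours, so a difference was built in. Terf2ip was at 12.6, 3.59, 8.80 and 6.27 TPM against 11.02, 14.2 and 18.6 TPM (log2 difference -0.90, adjusted p = 0.0136). K5-Tert tumour 1, the library with the most Tert, overlapped the Tert-123 range for both. Neither passed without K5-Tert tumours 2 and 4 after rescaling (adjusted p = 0.255 for Terf2ip). The list's median log2 difference was -0.59 as deposited and -0.11 after rescaling.

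MAPK output genes report the activity of the pathway that BrafV600E drives. Of 17 tested 2 fell, the ETS factors Etv4 and Etv1, and 0 rose, a share near the 8.75% lower over all genes tested. Etv4 was at 31.6, 18.1, 15.7 and 17.0 TPM against 37.5, 43.3 and 70.2 TPM, with no overlap (log2 difference -1.16, adjusted p = 0.00403). Etv1 was at 21.7, 4.43, 7.96 and 7.39 TPM against 14.6, 20.3 and 24.3 TPM, with K5-Tert tumour 1 inside the Tert-123 range (log2 difference -1.10, adjusted p = 0.0118). Etv4 and Etv1 had adjusted p = 0.0578 and 0.364 without K5-Tert tumours 2 and 4 after rescaling. Both groups carry the same Braf mutation, and Braf itself was at 2.40 to 4.31 TPM in K5-Tert tumours 2, 3 and 4.

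Thyroid differentiation genes had 1 fall among 10 tested, near the 8.75% over all genes. Hhex, a homeobox factor of thyroid development, was at 101, 41.4, 55.6 and 43.1 TPM against 82.7, 138 and 194 TPM (log2 difference -1.16, adjusted p = 0.00742), and K5-Tert tumour 1 lay inside the Tert-123 range. Of 17 tested ribosome biogenesis genes 3 fell, Ubtf, Rrs1 and Nat10, against 8.75% over all genes. Ubtf, which recruits RNA polymerase I to ribosomal DNA, was at 42.1, 19.7, 29.6 and 19.3 TPM against 40.2, 53.4 and 81.1 TPM (log2 difference -1.08, adjusted p = 0.00612). Of 22 tested PI3K and mTOR genes 2 fell, Rps6kb2, a ribosomal S6 kinase, by 1.17 (adjusted p = 0.00527) and Mtor by 0.88 (adjusted p = 0.0147), a share near that over all genes. Lama5, a laminin chain of basement membranes, was the 1 of 25 matrix, collagen and integrin genes that fell, at 125, 26.1, 42.2 and 36.7 TPM against 93.1, 103 and 143 TPM (log2 difference -1.20, adjusted p = 0.00948). Over all genes tested 8.75% fell. Hhex, Ubtf, Rrs1, Nat10, Rps6kb2, Mtor and Lama5 all missed the threshold without K5-Tert tumours 2 and 4 after rescaling (adjusted p from 0.131 to 0.462).

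**Figure D4:**
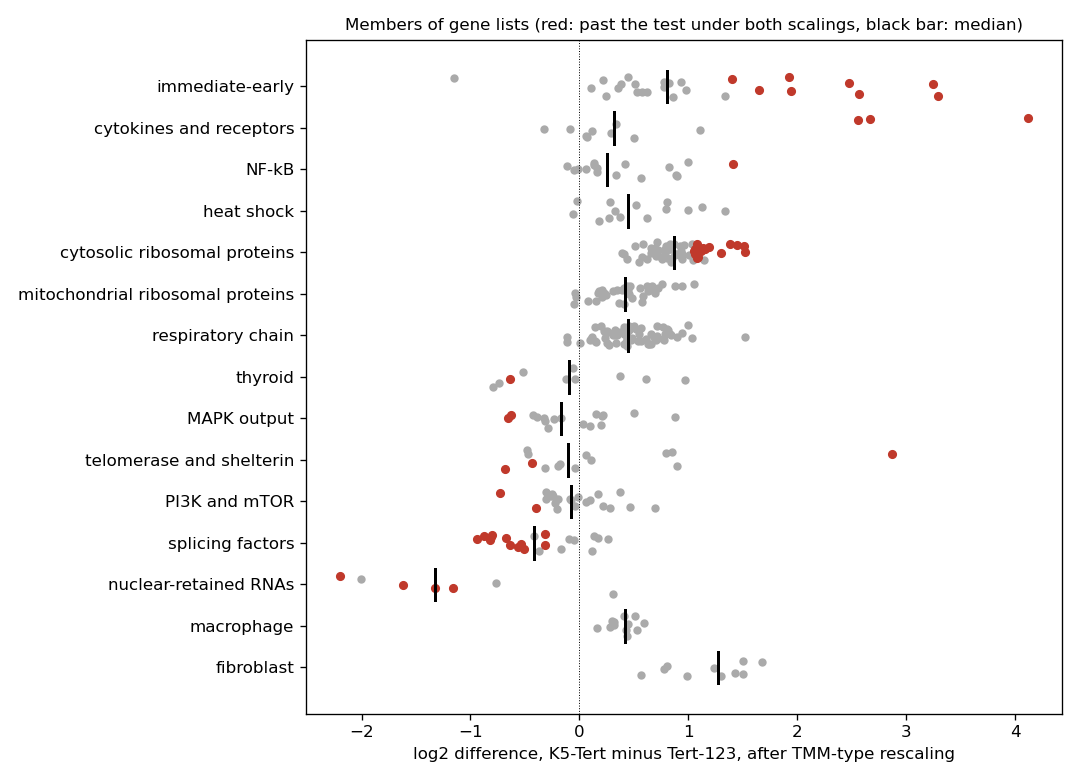
Each point is 1 tested member of a gene list, placed at its log2 difference (K5-Tert minus Tert-123 tumours) after rescaling; red points passed the test in the same direction under both scalings and black bars are list medians. Among the lists drawn, which leave out others such as the pericyte markers (median 1.48), medians run from -1.33 for nuclear-retained RNAs and -0.41 for splicing factors to 0.80 for immediate-early genes, 0.87 for cytosolic ribosomal proteins and 1.27 for fibroblast markers, in which no member passed.

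Other lists held no gene called under both scalings. They were unfolded protein response (21 tested), adhesion and junction (17), interferon-stimulated (10), YAP targets (9), keratins (7), basal keratinocyte (7), endothelial (6) and cell cycle (5) genes. At an unadjusted p under 0.05 as deposited, limma gave 0 higher in any of these lists, and 8 adhesion, 2 unfolded protein response, 2 YAP target, 2 basal keratinocyte, 2 cell cycle and 0 interferon, keratin or endothelial genes lower. After rescaling, 5 unfolded protein response genes and 1 interferon-stimulated gene rose, against 7.27% of all genes tested. Krt8 and Krt18, keratins of simple epithelia such as the thyroid, were at 359 to 804 and 595 to 1086 TPM in K5-Tert tumours and at 419 to 1130 and 604 to 1274 TPM in Tert-123 tumours. Calr, a chaperone of the endoplasmic reticulum, was at 265 to 613 TPM against 440.5 to 994 TPM. Mcm2 and Mcm3, subunits of the replicative helicase, were at 4.42 to 11.6 and 4.61 to 15.4 TPM against 7.96 to 17.8 and 8.05 to 21.5 TPM. Markers of T and NK cells, B cells, C cells and parathyroid, and erythroid cells had 0 members at the level tested, and the 6 erythroid markers were under 1 TPM in all 11 tumours.

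Sex was examined by adding Xist as a covariate after rescaling, which left 367 genes higher and 460 lower, with 12 immediate-early and 32 ribosomal protein genes higher and 10 splicing factor genes lower. As deposited with Xist, 40 genes were higher and 1565 lower.

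The pools without BrafV600E hold 1 library each and allow no test. Tert was at 125 TPM in the K5-Tert pool, 8.79 TPM in the Tert-123C>T pool and 2.15 TPM in the wild-type pool. Of the 14 genes with the largest rises in tumours, 6 were above the Tert-123C>T pool in the K5-Tert pool and 8 below, and of the 13 named for the largest falls 9 were above, 2 below and 2 equal. Il1b was at 17.2 TPM in the K5-Tert pool and 79.8 TPM in the Tert-123C>T pool, and Tle2 at 15.2 and 10.8 TPM. Fosb was at 982 and 1105 TPM, and at 788 TPM in the wild-type pool, far above every tumour. The Tert-123C>T pool held more transcripts of other cells, with the endothelial gene Plvap at 929 TPM against 106 TPM in the K5-Tert pool and 289.8 TPM in the wild type, so its levels cannot be assigned to thyrocytes.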

How the data were processed

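Sorted thyrocytes (9000 to 20000 YFP+ cells per library) were sequenced after low-input mRNA library preparation (14 PCR cycles, paired reads of 100 bases), per the labels. The authors deposited 1 table of normalized values of 23652 entries by 18 libraries. These deposited values are read here as TPM, since every column has the same total of 1000000 to within rounding, which does not prove the unit. For the aligner, quantifier, build and annotation nothing was given in the sources used here. The depth is unknown, so no counting interval is given. The 26 entries turned into dates (at most 0.0455% of a library) were left out, and 23547 of the other 23626 matched a mouse symbol. No 2 columns were identical.

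Genes at 10 TPM or more in at least 4 of the 15 tumour libraries (7498) entered limma 3.58.1 (R 4.3.3) on the log2(TPM + 1) scale, using a trend of variance on mean, 3 tumour groups and 12 residual degrees of freedom. The two-sided p-values were adjusted by Benjamini-Hochberg at 0.05 over all genes tested. Factors of the TMM type trimmed 30% of ratios and 5% of levels. Fold changes on this scale understate the change of low genes. Tert was also tested by exact permutation. Libraries are numbered within groups in series order, and the numbers pair nothing.

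The members, lists and rule for named genes were chosen with earlier results of these data known. The rule names Tert and Braf, the 14 largest rises and falls called under both scalings with a mean of at least 20 TPM, up to 4 called members of each list or up to 2 by level where none was called, and Xist, Ddx3y, Malat1 and Neat1. 1 gene that the rule names is not reported here; it stays in every fit and count over all genes, but not in counts over named genes. On simulated data built from these 7498 genes, limma recovered 59% of genes changed by 1 and 94% of those changed by 2 on the log2 scale, and called 6 of 7298 unchanged genes. The simulated noise was drawn separately for each gene, with the same spread in all groups and no library-wide shift or length trend. It therefore says nothing about false calls from such shifts, which K5-Tert tumours 2 and 4 carry. Alternatives were other scalings, pseudocounts of 0.5 and 5, no filter or 50 TPM, only the 2 groups, library weights, Xist as covariate and leaving libraries out; those combining rescaling with left-out libraries or Xist were chosen after the data were seen. Promoter sequences came from the RefSeq table.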

Additional observations from a re-analysis of the deposited data

Results flagged for a closer look

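In 11 of 174 gene and group combinations among the named genes, 1 tumour stood apart from the rest of its group by more than Dixon's 95% critical value, where chance gives about 1 in 20. 4 of them were stress-responsive genes high in Tert-123 tumour 7: Fosb (63.0 TPM), Atf3 (161 TPM), Fos (388 TPM) and Hspa1a (162 TPM). Each was above the other 6 Tert-123 tumours, and Fos was also above all 4 K5-Tert tumours. Tert-123 tumour 3 was low for Rps2 (49.1 TPM) and high for Mtor (25.02 TPM). K5-Tert tumour 3 was high for Nr4a3 (119 TPM), Rpsa (1108 TPM), Nfil3 (70.3 TPM) and Xist (52.5 TPM), the last because it was the only Xist-positive K5-Tert tumour. K5-Tert tumour 1 was high within its group for Tle2 (32.2 TPM), yet below every Tert-123 tumour.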

How the results depend on the processing

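No paired analysis was possible because the library numbers follow the order of the series and pair nothing. The difference in Tert was 1.86 to 2.87 on the log2 scale with pseudocounts of 0.5 and 5, TMM-type factors or without Rpph1 (exact p = 0.00303 in these) and between 1.97 and 2.85 when single libraries were left out (exact p = 0.00476 or 0.00833, the smallest those designs allow).

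The counts of genes called as deposited (57 higher, 2210 lower) moved with the scaling: 545 and 656 with TMM-type factors, 233 and 454 with quantile normalization, 193 and 1632 without Rpph1, and 396 and 614 with each library's mean and length slope removed. They were 23 and 234 with a filter at 50 TPM, where fewer genes were tested, 35 and 1066 with only the 2 groups in the fit, and 94 and 4640 with library weights. Pseudocounts of 0.5 and 5, no filter and Xist as a covariate stayed within 1.5 times. Without single libraries the counts ran from 17 (without K5-Tert tumour 2) to 86 higher (without K5-Tert tumour 1) and from 528 (without K5-Tert tumour 4) to 3910 lower (without K5-Tert tumour 1). The higher count was also 21 without K5-Tert tumour 3 and 26 without K5-Tert tumour 4, and the lower count 551 without K5-Tert tumour 2 and 1454 without Tert-123 tumour 3. Leaving out both K5-Tert tumours 2 and 4 gave 3 and 14 as deposited and 47 and 96 after rescaling. Rescaled, they were 580 and 667 without Tert-123 tumour 7 and 367 and 460 with Xist. The cause of each move beyond the smaller number of samples or genes was not tested.

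None of the 58 named genes called under both scalings changed sign in a setting run, and 14 of the 28 named genes not called did. Of the 27 genes named for the largest changes, 0 lost their call under TMM-type factors, without Rpph1 or with the mean and length slope removed (26 tested there). The call was lost by 4 under quantile normalization, 6 with Xist as a covariate and 3 with Xist after rescaling. Without K5-Tert tumours 2 and 4, 24 of the 27 lost their call as deposited and 12 after rescaling. With unknown depth, the precision of genes near 10 TPM cannot be stated.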

Other observations

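Histone genes, taken by name after their values were seen, were not part of any list. Of 52 tested, 4 rose under both scalings (Hist1h3b, Hist1h3g, Hist1h4c and Hist1h2ab) and 0 fell, and 11 rose after rescaling alone. Over all genes tested, 0.760% rose under both scalings and 7.27% after rescaling alone. Hist1h3b, a core histone of nucleosomes, was at 53.8, 117, 235 and 41.8 TPM in K5-Tert tumours 1 to 4 and at 11.6, 46.1 and 57.3 TPM in Tert-123 tumours (lowest, median and highest), with tumours 1 and 4 inside that range. Hist1h2ab was at 59.9, 68.9, 133 and 19.3 TPM against 15.9, 34.8 and 41.9 TPM. The messages of many core histones lack a poly(A) tail, and histone genes are near-identical copies, so how reads were shared among them is uncertain. Of the cell cycle list 0 of 5 tested genes passed limma's test, and 2 were lower at an unadjusted p under 0.05.

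The next genes, in no list, were picked after their values were seen because they were lower in K5-Tert tumours, so they support no statement on genes of their kind. Srek1, a splicing regulator, was at 25.6, 8.82, 13.3 and 6.30 TPM against 30.9, 39.8 and 50.8 TPM (log2 difference -1.68, limma adjusted p = 0.00122). Snrnp70, a protein of the U1 particle, was at 76.8, 24.6, 41.7 and 39.3 TPM against 91.5, 124 and 157 TPM (log2 difference -1.45, adjusted p = 0.00197). Pnisr, Clasrp, Akap8l, Safb2 and Sfswap fell by 1.74, 1.58, 1.63, 1.65 and 1.51. All 7 remained lower without K5-Tert tumours 2 and 4 after rescaling, with adjusted p from 0.0116 for Srek1 to 0.0378 for Akap8l.

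Srxn1, which repairs oxidised peroxiredoxins, was at 26.5, 16.3, 33.9 and 19.9 TPM in K5-Tert tumours and at 7.18, 13.6 and 16.6 TPM in Tert-123 tumours (log2 difference 0.81, limma adjusted p = 0.0162). K5-Tert tumour 2 alone overlapped, and the call held without K5-Tert tumours 2 and 4 after rescaling (adjusted p = 0.0257).

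Krt5, the gene whose promoter names the transgene, was at 29.2 TPM in K5-Tert tumour 1 and at 0.412, 1.21 and 0 TPM in tumours 2 to 4, against 0 to 4.20 TPM in Tert-123 tumours. Its basal cell partner Krt14 was at 61.8, 1.37, 2.05 and 1.09 TPM. Tert did not follow the same order, since K5-Tert tumour 4, listed at 0 for Krt5, held 53.4 TPM of Tert.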
